A study of Mus musculus with 8 samples.

Results

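The distal upstream Klf6 peaks were the ChIP-seq peaks whose summit lay between 15 and 50 kb upstream of a listed RefSeq transcription start, beyond the promoter-proximal window of -15 to +5 kb. They were chosen from the 4 peak lists by the listed gene and the listed distance alone, so no measured height entered the choice. They numbered 4811 of the 36280 peaks of the series, with 1682 in OLP A, 994 in OLP B, 1374 in iOL A and 761 in iOL B. The cells were primary C57BL/6 mouse oligodendrocyte progenitors (OLP), expanded with PDGF-AA at 10 ng/ml and bFGF at 20 ng/ml, and immature oligodendrocytes (iOL), the same kind of culture after triiodothyronine (T3) at 40 ng/ml for 18 h. Each stage had 2 replicates, A and B, which the study describes as biological. The labels give no change to the Klf6 gene in any group, and all 4 ChIP samples were precipitated with 1 rabbit polyclonal antibody against Klf6. No sample without Klf6 is among the samples, and the 4 input samples, against which peaks were called, have no file of their own here. The lists contain no expression values, so the identity of the cultured cells could not be checked against marker genes.

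Klf6 is a zinc-finger transcription factor of the Krüppel-like family, which binds GC-rich and CACCC-type DNA sequences. Regions far upstream of a gene can hold enhancers, which act on promoters through looping of the chromatin, and a nearest-gene label does not show which promoter a distal region acts on. Oligodendrocyte progenitors leave the cell cycle under T3 and switch on myelin genes. Much of the intergenic mouse genome is made of copies of transposable elements, and short reads from such copies match many places.

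The distal peaks consisted mostly of sequence found many times elsewhere in the genome. The capitals below mark a stretch of 20 bases that was held by 53 of the 3273 distal loci, 8 of them found in all 4 samples, and that occurs 40581 times in the mm9 genome on either strand. The same stretch was in 29 of 9622 neighbouring regions of the same length, taken 5 kb before and after each distal peak (0.30%). It was also in 351 of the other loci of the series (1.77%, against 1.62% of distal loci), so it was not particular to the distal range. The peaks that carried it were listed for unrelated genes, and 4 of them are shown with 40 bases on each side. They lie at chr7:147659734-147659833 (Olfr535, an odorant receptor), chr4:73463554-73463653 (Rasef), chr7:27880065-27880164 (Cyp2f2, a cytochrome P450) and, on the minus strand, chr7:93337837-93337936 (Vmn2r75, a pheromone receptor).
Olfr535: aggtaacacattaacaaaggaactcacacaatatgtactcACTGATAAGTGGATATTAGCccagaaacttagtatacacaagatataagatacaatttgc
Rasef: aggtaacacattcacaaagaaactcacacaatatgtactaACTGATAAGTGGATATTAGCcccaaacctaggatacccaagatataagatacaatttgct
Cyp2f2: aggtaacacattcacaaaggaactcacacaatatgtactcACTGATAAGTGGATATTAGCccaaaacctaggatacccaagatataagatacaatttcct
Vmn2r75: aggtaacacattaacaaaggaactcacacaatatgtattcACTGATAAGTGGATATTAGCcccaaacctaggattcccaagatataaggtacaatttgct
The lower-case flanks are also nearly alike, and the similarity extends over the whole printed length. Of the 8 most frequent stretches of 20 bases without a shared 10-base word, each was held by 53 to 67 distal loci and occurs 17248 to 45161 times in the genome. Together they were present in 228 of the 3273 distal loci (6.97%) and in 23 of the 184 loci found in all 4 samples (12.5%). Several of them lie side by side or overlap in the same peaks, as at the peak listed for Tm4sf1, so the 8 are not separate sequences. These stretches were picked for their frequency among these peaks, so the counts are a description.

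The locus with the largest lowest fold enrichment over the 4 samples, the most uniformly high distal site, was listed for Abi3bp, which encodes an extracellular matrix protein. The fold enrichment, the ratio of tags to the background expected by the peak caller MACS, was 48.62 in OLP A, 28.16 in OLP B, 57.06 in iOL A and 26.43 in iOL B at this locus. It rested on 21, 27, 27 and 25 tags. The median 20-base stretch of this peak occurs 10777 times in the genome, and 92.1% of its stretches occur 100 times or more. Tags were alike in number. The listed folds were higher in both A samples here and at all 10 loci named by this rule, but folds of different samples are not on a common scale and were not tested against each other.

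The other 9 loci found in all 4 samples with the largest lowest fold enrichment were listed for Olfr535, Ankfn1, 9330182O14Rik, Vmn2r58, Gm4937, 4833424O15Rik, Rasef, Vmn1r22 and Olfr948. Their summits lay 16866 bp (Ankfn1) to 41317 bp (4833424O15Rik) upstream of the listed start. Vmn2r58, a pheromone receptor gene, had fold enrichments of 63.20 in OLP A, 21.40 in OLP B, 52.10 in iOL A and 30.65 in iOL B. Olfr535 had 43.75, 23.65, 49.62 and 28.54 in the same order. At both genes the listed values of the stages overlapped. In all 10 peaks between 74.7% and 92.1% of the 20-base stretches occur at least 100 times in the genome. Receptors of the olfactory and vomeronasal systems made up 4 of the 10 listed genes. Over all genes with a distal peak, olfactory receptors were 5.09% and vomeronasal receptors 4.27%. Of the 222 genes with a distal peak in all 4 samples, the closer background, 26 were olfactory and 18 vomeronasal receptors. None of the 10 belongs to the oligodendrocyte, gp130-Stat3, importin or Klf and Sp lists described below.

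**Figure D1:**
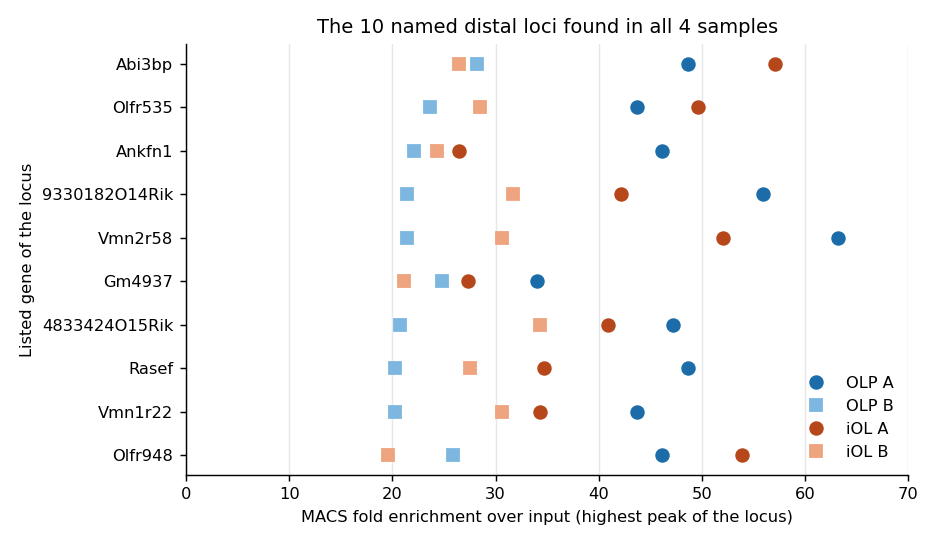
Fold enrichment over input (x axis, ratio without unit) of the 10 distal loci found in all 4 samples with the largest lowest fold enrichment, 1 row per listed gene and 1 symbol per sample. The 2 replicate A samples (circles) have higher values than the 2 replicate B samples (squares) at every locus, and the stages overlap.

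The highest fold enrichments of distal peaks in OLP A, OLP B and iOL A were at a run of a 5-base unit. In iOL B the highest, 34.88, was at the locus listed for Gm20579, which was not among the loci with such a run and had 63.20 in OLP A, 19.15 in OLP B and 64.51 in iOL A. The peak listed for D17Wsu104e at chr17:56339353-56339522, 16128 bp upstream, reached 114.25 in OLP A with 48 tags, 37.17 in OLP B, 66.99 in iOL A and 5.15 in iOL B. The peak listed for Gm17644 at chr1:12634843-12634962, 22751 bp upstream, reached 92.37 in OLP A, 26.80 in OLP B and 49.62 in iOL A and was not called in iOL B. Both are shown with the repeated 5-base units in capitals (ATTCC or ATTCT in the first, GGAAT, the complement of ATTCC, in the second).
D17Wsu104e: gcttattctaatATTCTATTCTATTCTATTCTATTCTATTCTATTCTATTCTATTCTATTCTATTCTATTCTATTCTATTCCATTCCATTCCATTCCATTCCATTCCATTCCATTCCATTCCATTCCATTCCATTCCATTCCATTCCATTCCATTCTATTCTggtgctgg
Gm17644: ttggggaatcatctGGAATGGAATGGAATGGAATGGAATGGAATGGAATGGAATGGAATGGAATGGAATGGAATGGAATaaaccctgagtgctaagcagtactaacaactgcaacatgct
At least 4 units of GGAAT in a row, read on both strands, were in 10 distal peaks at 3 loci, the third listed for Cyr61, which encodes a matrix-associated signalling protein. No neighbouring region of 9622 held such a run. The run was picked from the peaks of highest fold, so the folds of these peaks are a description. Reads were not used here, and whether the tags came from these mouse loci or from other DNA with the same unit was not tested. The same run was in 10 of the 3044 window peaks and in 43 of the 28425 peaks without a listed gene, so it was not particular to the distal range. In iOL B only the D17Wsu104e peak carried it, at the lowest of the 10 values.

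Between the stages, the number of distal peaks overlapped. OLP samples had a mean of 1338 ± 486 (SD, n = 2) and iOL samples 1068 ± 433 (SD, n = 2), a difference of 270.5 (exact permutation test, two-sided, p = 0.67). With 2 samples against 2 the smallest p this test allows is 0.33, so the design could not reach 0.05. Within letters the difference was 308 for A and 233 for B, and the difference between A and B within a stage was larger than either. Distinct listed genes numbered 1325, 872, 1135 and 689 in OLP A, OLP B, iOL A and iOL B, with stage means of 1099 ± 320 and 912 ± 315 (SD, n = 2, exact p = 0.67). Without OLP A the difference in peaks turned to -73.5, and without iOL B to -36.0, so its direction rested on single samples. The share of all peaks that was distal was nearly the same in the 4 samples, from 12.7% to 13.5%.

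Most distal peaks were small. The median peak held 8 tags in OLP A, 12 in OLP B, 8 in iOL A and 13 in iOL B, and the smallest held 7, 9, 7 and 10. The number of reads per sample is not given in the sources used here, so the depth is unknown. Tags summed to 24066, 15307, 19628 and 14767 over the distal peaks, sums that also move with the number of peaks called and with a few large pile-ups. Median fold enrichment was 14.6, 9.01, 14.9 and 10.6 in OLP A, OLP B, iOL A and iOL B. It was above that of the window peaks of the same sample in 4 of 4 samples, by 0.58 ± 0.46 on average (SD, n = 4 samples, exact sign flips, p = 0.13, the smallest p this test allows). That excess was not kept within copy classes. It was -0.39 among high-copy peaks and -0.31 among low-copy peaks, classes defined below.

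The count of distal peaks per kb of distance fell away from the listed start. These counts were not divided by the area of genome that lies at each distance, so the fall is not a fall in density over the genome. In 5-kb bins, OLP A had 301 peaks between -20 and -15 kb and 192 between -50 and -45 kb, a ratio of 1.57, and the ratio was 1.56, 1.53 and 1.61 in OLP B, iOL A and iOL B. The decline was not even, and in iOL A the highest bin, with 261 peaks, was the next one, from -25 to -20 kb. Per kb of distance, the distal range held 48.1, 28.4, 39.3 and 21.7 peaks, and the window held 53.1, 32.6, 42.4 and 24.0. Within 2 kb of a start there were 30.2, 28.5, 21.0 and 19.2 peaks per kb of distance, below the distal value in OLP A, iOL A and iOL B and level with it in OLP B.

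**Figure D2:**
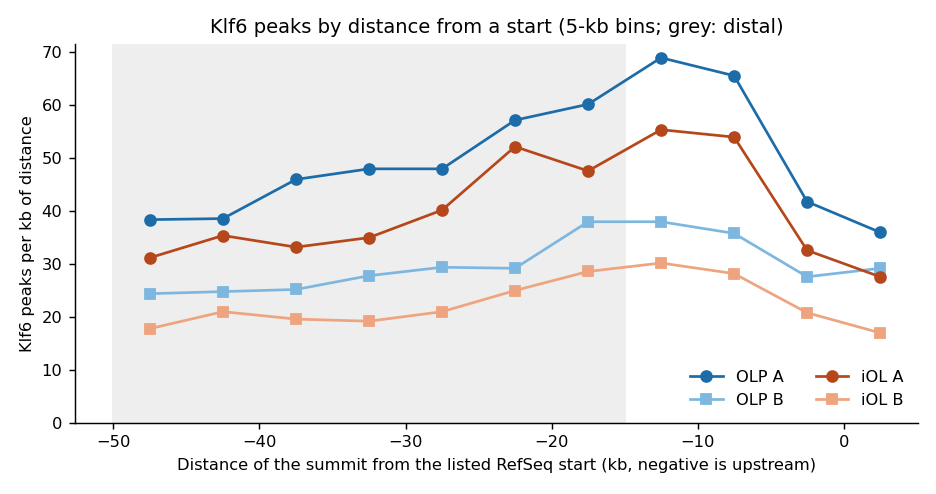
Number of Klf6 peaks per kb of distance (y axis) against the distance of the summit from the listed start in kb (x axis, 5-kb bins), 1 line per sample. The grey range holds the distal peaks, whose count per kb is lower at -50 kb than at -15 kb in all 4 samples, and it drops again in the bin from -5 kb to the start. Counts are not divided by the area of genome at each distance.

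To compare like areas, every 100th base of mm9 was put through the same rule with GENCODE protein-coding starts. The distal range covered 440.2 Mb (17.2% of the sequenced genome). With these starts OLP A had 4.24 distal peaks per Mb against 4.87 over the genome, OLP B 2.51 against 3.06, iOL A 3.49 against 4.0 and iOL B 1.83 against 2.26. The distal range thus held 0.84 ± 0.03 of the genome-wide density (SD, n = 4 samples), and the window 0.56 ± 0.02. The difference between the ranges was 0.28 ± 0.02, positive in 4 of 4 samples (exact sign flips, p = 0.13, the smallest allowed). In every sample the density was thus lower near starts than at 15 to 50 kb, and lower there than over the genome.

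Whether distal peaks recurred was asked by looking for a partner, a peak of the other replicate of the stage at a gap of at most 500 bp. A partner was found for 21.9% of the distal peaks of OLP A (95% Wilson interval 20.0 to 24.0%), 36.8% of OLP B (33.9 to 39.9%), 27.4% of iOL A (25.1 to 29.9%) and 48.8% of iOL B (45.2 to 52.3%). Over all peaks of these samples the shares were 27.1%, 42%, 31.9% and 55%, so the distal share was below this background in every sample. Intervals cover counting error only. Against window peaks of the same sample the distal share was higher by 5.63 ± 2.79 percentage points (SD, n = 4 samples), in 4 of 4 samples. Against peaks with no listed gene it was lower by 7.31 ± 1.15 points, in 4 of 4 samples (exact sign flips, p = 0.13 for each, the smallest allowed). The replicates with fewer peaks had the higher shares, and the number of distal peaks with a partner was alike, at 369, 366, 377 and 371. Within a stage the A and B shares count the same matches from either side. The 4 differences are therefore not independent, and the p of 0.13 treats them as if they were.

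Recurrence rose with the peak caller's score, -10 times the log10 of the p-value. In OLP A a partner was found for 6.91% of distal peaks with a score of 40 to 50, for 22.2% of those from 50 to 100 and for 63.6% of those at 100 and above. The same steps in iOL B gave 23.8%, 56.6% and 89.5%. High-copy sequence rose alongside, from 56.2% to 79.8% to 91.4% of these peaks in OLP A and from 63.2% to 89.5% to 97.9% in iOL B. The part of copy number in the recurrence at a fixed score was not tested.

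Copy number was measured with the reference genome alone. A peak was called high-copy where over 50% of its 20-base stretches occur 100 times or more in mm9 on either strand, and low-copy otherwise. Distal peaks were high-copy in 72.9% of OLP A, 65.1% of OLP B, 76.9% of iOL A and 80.9% of iOL B. Neighbouring regions of the same length were high-copy in 19.1%, 19.1%, 20.1% and 20.2%. The excess was 54.4 ± 6.24 percentage points (SD, n = 4 samples, higher in 4 of 4, exact sign flips, p = 0.13). Window peaks were high-copy less often than distal peaks, by 12.7 ± 2.55 points on average, and peaks without a listed gene more often, by 5.44 ± 0.81 points, each in 4 of 4 samples with the same p of 0.13. The median 20-base stretch of a distal peak occurs 2563, 1974, 3716 and 3998 times in the genome in the 4 samples, and that of a neighbouring region once.

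The more samples shared a locus, the more often it was high-copy. Of 3273 distal loci, which join peaks of all samples at gaps of at most 500 bp, 2447 were found in 1 sample, 415 in 2, 227 in 3 and 184 in 4. High-copy loci made up 57.2%, 85.3%, 94.7% and 98.9% of these groups. The 184 distal loci in all 4 samples were 5.62% of the distal loci, against 7.52% of all loci of the series. A total of 532 distal loci were found in both replicates of at least 1 stage, and 94.9% of them were high-copy.

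**Figure D3:**
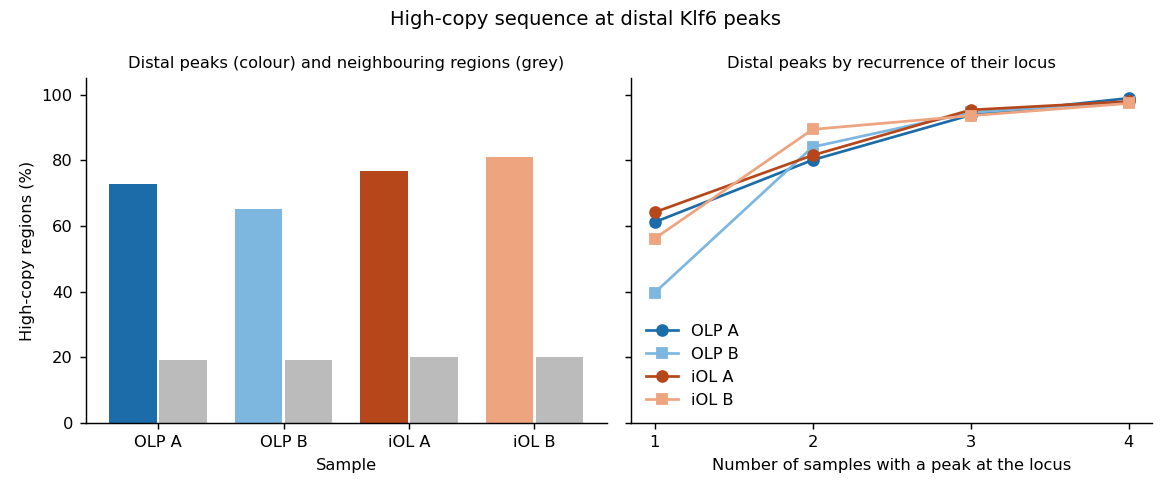
Percentage of high-copy regions (y axis) among distal peaks and same-length neighbouring regions in each sample (left) and among distal peaks by how many samples share the locus (right). Neighbouring regions stay near 20% in all samples, and peaks at loci found in all 4 samples are high-copy in over 97% of cases.

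Split by copy number, the recurrence of distal peaks separated clearly. Among high-copy distal peaks 28.4% of OLP A, 53.3% of OLP B, 34.7% of iOL A and 57.8% of iOL B had a partner. Among low-copy distal peaks 4.61%, 6.05%, 3.46% and 10.3% had one, which were 21 of 456, 21 of 347, 11 of 318 and 15 of 145 peaks. Over all peaks of OLP A, OLP B, iOL A and iOL B, 33.7%, 58.7%, 38.8% and 62.2% of high-copy peaks had a partner. For low-copy peaks these shares were 5.85%, 6.83%, 5.09% and 14.4%, so the separation was not particular to the distal range. The comparison with window peaks depended on the split. In high-copy peaks the distal share exceeded the window share by 2.04 ± 1.32 points (4 of 4 samples, exact sign flips, p = 0.13), and in low-copy peaks it was below it by 1.61 ± 1.18 points (3 of 4 samples, p = 0.25). Here too the A and B shares of a stage count the same matches and are not independent. How reads matching several places were assigned is not given in the sources used here, and its part in these shares was not tested.

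**Figure D4:**
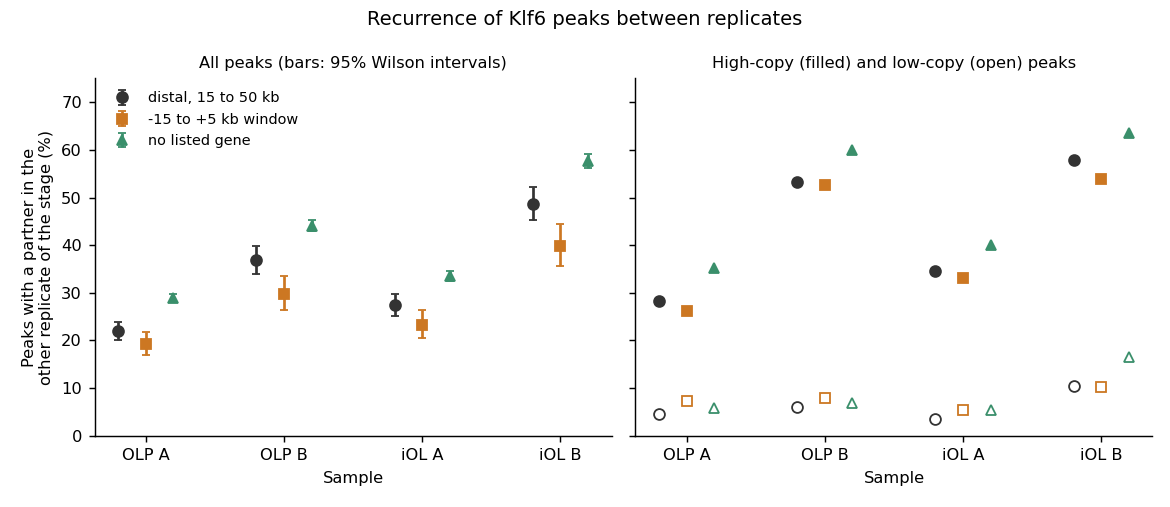
Percentage of peaks with a partner in the other replicate of the stage (y axis) for each sample and distance class, for all peaks with 95% Wilson intervals (left) and for high-copy and low-copy peaks apart (right). Distal peaks lie between window peaks and peaks without a listed gene on the left, and low-copy distal peaks stay at or below 10.3% on the right.

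Distal peaks were also shared across stages. Of the OLP A distal peaks, 524 (31.2%, Wilson 29.0 to 33.4%) had a partner in iOL A and 369 (21.9%) in OLP B, next to 36.6% and 27.1% of all OLP A peaks. The lists searched differ in length, with 10225 peaks in iOL A and 7827 in OLP B, so these shares do not rank the stages. Of the OLP B distal peaks, 36.8% had a partner in OLP A, 34.0% in iOL A and 29.4% in iOL B. The other pairings of OLP with iOL gave 391 for OLP A with iOL B, 338 for OLP B with iOL A and 292 for OLP B with iOL B. Loci found in both OLP samples and neither iOL sample numbered 64 (1.96% of distal loci, against 2.46% of all loci). Those found in both iOL samples alone numbered 57 (1.74% against 1.62%). The pair of A samples alone shared 150 loci (4.58% against 5.11%) and the pair of B samples alone 35 (1.07% against 0.87%).

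Among the loci found only in OLP the largest mean fold enrichments were at Cyp51, Csn1s2a, Clec14a, Stfa1 and Sh3gl2. Cyp51 encodes a cholesterol synthesis enzyme, and its distal peak, 43748 bp upstream, had 28.47 in OLP A and 11.21 in OLP B on 15 and 17 tags. Sh3gl2, which encodes endophilin A1 of synaptic vesicle recycling, had 24.31 and 10.14 at 15813 bp. Among those found only in iOL the first 5 were Rnpc3, Vmn2r16, Gm7714, Skint3 and Gm4776. Rnpc3, which encodes a protein of the minor spliceosome, had 37.22 in iOL A and 11.63 in iOL B at 43322 bp on 16 and 11 tags. Apart from Stfa1, whose peak had a median of 2.5 copies per stretch, all 10 loci were high-copy. An absent peak means only that MACS made no call. These peaks held 7 to 18 tags, and a difference between stages was not tested at them.

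A small group of distal peaks lay on annotated genes for small structural RNAs, which build ribosomes and spliceosomes. The GENCODE genes of the classes rRNA, snRNA and snoRNA were under 6 of 1682 distal peaks in OLP A (0.36%), 8 of 994 in OLP B (0.80%), 5 of 1374 in iOL A (0.36%) and 8 of 761 in iOL B (1.05%). Neighbouring regions overlapped them in 0.15%, 0.30%, 0.25% and 0.46%, and window peaks in 0 to 2 cases apart from 10 in OLP B. Copy number differed among them. The 20-base stretches of the peaks listed for Rhou had a median of 51 to 56 copies, so the copy that gave those tags is uncertain, whereas the Tmem196, Parp16 and Kif2c peaks had a median of 1. Reads were not used here, so it was not tested whether the tags of these peaks came from the listed loci. The listed genes were other genes nearby, and these peaks were picked out after their values were seen.

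The peaks listed for Rad51c, a recombination gene, lay on 2 genes for the U3 snoRNA of ribosomal RNA processing. The first had 51 tags and a fold enrichment of 11.5 in OLP B and 52 tags and 8.73 in iOL B, the second 54 tags and 8.47 in OLP B and 21 tags and 5.31 in iOL B. Neither was called in an A sample. The peaks listed for Arl4d lay on a gene for the U2 snRNA of the spliceosome, with 107 tags and 10.37 in OLP B, 56 tags and 4.37 in iOL B and 22 tags and 6.86 in OLP A. The peaks listed for Parp16 lay on a U5 snRNA gene, with 64 tags and 5.35 in OLP B and 25 tags and 5.85 in iOL B. The peak listed for Eapp in OLP B, with 32 tags and 11.26, overlapped a U1 snRNA gene. The snRNA and snoRNA peaks of the Rad51c, Arl4d and Parp16 regions were thus shared by the 2 B samples across stages.

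Genes for 5S ribosomal RNA were under peaks listed for Rhou, Dbndd1 and AU022751, and a gene labelled only as rRNA was under those listed for Tmem196. Rhou, which encodes a small GTPase, had 5 such peaks at 3 loci between 31971 and 48950 bp upstream on chromosome 8, each with 7 to 13 tags, in OLP A, iOL A and iOL B. The Tmem196 locus on chromosome 12 had 8 tags and a fold enrichment of 17.02 in OLP A, 11 tags and 24.81 in iOL A and 13 tags and 10.82 in iOL B. It is shown because it was 1 of 8 distal loci found in both replicates of a stage with little repeated sequence. The iOL A peak lies at chr12:121157746-121157892, and capitals mark the part inside the annotated rRNA gene AC134596.1.
Tmem196: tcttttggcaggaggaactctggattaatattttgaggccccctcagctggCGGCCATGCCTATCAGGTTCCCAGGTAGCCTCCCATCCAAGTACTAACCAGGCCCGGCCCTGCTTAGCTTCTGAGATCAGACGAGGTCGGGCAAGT
The Alkbh2 locus had the largest mean fold enrichment of those 8, with 17.02 in OLP A, 37.22 in iOL A and 11.63 in iOL B on 8, 17 and 13 tags. Alkbh2 encodes a DNA repair enzyme. Whether the tags came from this place in the mouse genome or from other DNA was not tested for either locus.
The other 6 were listed for Lipf, Rnf6, Gm13154, Raet1a, Fam118b and Ly6c1. At the last 3 and at Rnf6 the fold enrichments were between 1.54 and 6.59 with 76 to 1598 tags, a low ratio over many tags.

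Such pile-ups, distal peaks with at least 100 tags, numbered 20 in OLP A, 10 in OLP B, 16 in iOL A and 7 in iOL B. They were 0.92% to 1.19% of the distal peaks and held 28.4%, 12.2%, 31.1% and 25.8% of their tags. Their median fold enrichment was 5.94, 4.18, 5.51 and 3.58, below the median of all distal peaks in each sample. The largest was listed for Col19a1, a collagen gene, at 25367 bp upstream on chromosome 1, with 2375 tags and a fold enrichment of 2.81 in OLP A and 2409 tags and 2.11 in iOL A. Of its 32-base stretches 96.3% are also found in the mitochondrial genome of the reference. The peaks listed for Gad2, which encodes a GABA-synthesising enzyme, shared 61.7% to 83.0% of their stretches with it and were called in OLP A and iOL A. No distal peak of a B sample shared over 50%. Fam118b had 684, 692, 682 and 688 tags in OLP A, OLP B, iOL A and iOL B, with fold enrichments of 6.37, 1.94, 4.03 and 1.54.

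**Figure D5:**
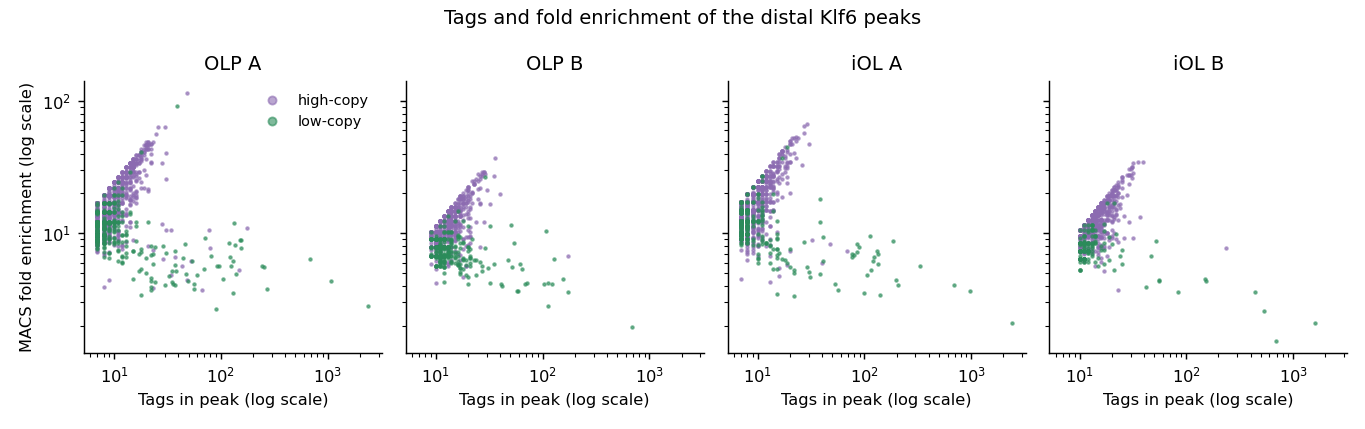
Fold enrichment (y axis, log scale) against tags per peak (x axis, log scale) for every distal peak, 1 panel per sample, coloured by copy class. Most peaks with over 10 tags and a high fold, up to 114.25 in OLP A, are high-copy, and most peaks with 100 tags or more have a low fold and are low-copy.

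GC content set the distal peaks below both their surroundings and the window. The median was 37.8% in OLP A, 36.3% in OLP B, 38.4% in iOL A and 38.8% in iOL B. It was below that of window peaks by 1.06 ± 0.31 points and below neighbouring regions by 3.16 ± 0.85 points (SD, n = 4 samples, lower in 4 of 4, exact sign flips, p = 0.13 for each). Against peaks without a listed gene it was higher by 0.21 ± 0.30 points, in 3 of 4 samples (exact sign flips, p = 0.38). Letters of Klf and Sp binding sequences were also less frequent at the summits than nearby. Within 100 bases of the summit on both strands, CCGCCC was in 0.76% of distal peaks on average over samples against 1.45% of windows 5 kb away. CCACCC was in 4.54% against 11%, and the shorter CACCC, which CCACCC contains, in 19.7% against 27.2%. Each was lower in 4 of 4 samples (exact sign flips, p = 0.13). CCACCC and CACCC were also less frequent than nearby in window peaks and in peaks without a listed gene, in every sample. In OLP B, CCACCC was in 6.28% of window peaks against 11.1% nearby, and in 3.96% of peaks without a listed gene against 9.32%. CCGCCC was lower there too, apart from window peaks of iOL B, at 3.74% against 2.29%. The lower frequency was thus not particular to the distal range. A match of these letters is a description and not a binding site, and its absence from this window says nothing on binding.

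By the GENCODE annotation of the same build, 3574 of the 4811 distal summits (74.3%) lay outside all transcripts, 1149 (23.9%) in introns and 88 (1.83%) in exons. The share outside transcripts among window peaks was 71.7%. A transcript of a gene other than the listed one covered 1115 summits (23.2%), and the listed gene itself covered 122 (2.54%). The listed distance is to a RefSeq start, and with GENCODE protein-coding starts 84.7% of the peaks stayed in the distal range and 4.70% fell in the window. With starts of all GENCODE transcripts 18.8% fell in the window. A start of any kind lay within 2 kb of 197 summits (4.09%).

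The distal peaks were listed for 2434 genes. A total of 1541 of these genes had a distal peak in 1 sample alone, 420 in both OLP samples, 398 in both iOL samples and 222 in all 4 samples. Window peaks were also found for 414 of them (17.0%). Of the 22238 protein-coding genes of GENCODE, 9.31% had a distal peak in any sample and 2.29% in both replicates of a stage, and these are the background for the lists that follow. Lists were compared with it by counts only.

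Oligodendrocyte lineage and myelin genes had a distal peak in any sample in 6 of 38 members (15.8%), and 1 in both replicates of a stage (2.63%). That gene was Mal, which encodes a proteolipid of myelin and lipid rafts. Its peak lay 15920 to 15924 bp upstream, just inside the range, with fold enrichments of 41.32 in OLP A, 15.77 in OLP B, 15.28 in iOL A and 15.86 in iOL B on 19, 14, 10 and 15 tags. It was called in all 4 samples. The peak was high-copy, with 71.0% to 85.1% of its 20-base stretches at 100 copies or more. Further genes of the list had 1 peak in 1 sample each: Pdgfra, the PDGF receptor of progenitors, 14.64 in OLP B, Nkx2-2, a differentiation factor, 13.99 in OLP A, Ermn, a myelin cytoskeletal gene, 9.51 in iOL B, and Nfasc, an axo-glial adhesion gene, 4.53 in iOL A. These 4 genes, all with high-copy peaks, were named after their values were seen.

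The gp130-Stat3 pathway carries signals of the interleukin-6 cytokine family, and 3 of its 27 listed genes (11.1%) had a distal peak, none in both replicates of a stage. Osmr, the oncostatin M receptor, had 12.12 in iOL B and Il6, a cytokine, 7.88 in OLP B. The Il6 peak was low-copy and held 10 tags. Of 27 importin and nuclear transport genes, 1 (3.70%) had a distal peak, which was Kpnb1 (importin beta) with 17.37 in iOL A on 8 tags. Of 26 Klf and Sp factor genes, 3 (11.5%) had one. Sp8 had 14.58 in OLP A and 22.33 in iOL A at the same locus, Klf2 12.15 in OLP A and Sp4 9.92 in iOL A, all of them high-copy.

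Neural adhesion and axon guidance genes had a distal peak in 11 of 71 members (15.5%) and in both replicates of a stage in 2 (2.82%). Pcdh18, a protocadherin, had 21.48, 28.93, 22.33 and 9.17 in OLP A, OLP B, iOL A and iOL B at about 42 kb upstream. Sema5a, a semaphorin, had 24.31, 15.33, 26.21 and 15.86 at about 31 kb. Both were called in all 4 samples. Ion channels and transmitter receptors had a distal peak in 14 of 73 members (19.2%) and in both replicates of a stage in 3 (4.11%). Gabrg1, a GABA-A receptor subunit, had peak pairs at about 17 kb upstream in OLP A and both iOL samples and a single peak in OLP B, with a highest fold of 29.40, 27.03, 34.73 and 19.03. Grik2, a kainate receptor subunit, had a distal peak in all 4 samples, at 4 loci, of which none was found in both replicates of a stage. Grm5, a metabotropic glutamate receptor, had 21.88 in OLP A, 17.16 in iOL A and 7.87 in iOL B at 1 locus. All these peaks were high-copy.

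Receptor genes of the vomeronasal and olfactory systems lie in clusters. Distal peaks were listed for 104 of 438 vomeronasal receptor genes (23.7%), 41 of them in both replicates of a stage (9.36%), and for 124 of 1250 olfactory receptor genes (9.92%), 51 in both replicates (4.08%). The olfactory share was near the background of 9.31% and below the window share, since window peaks were listed for 14.5% of the olfactory and 21.7% of the vomeronasal genes. Zinc-finger genes named Zfp had a distal peak in 38 of 372 (10.2%), solute carriers in 35 of 372 (9.41%), cadherins and protocadherins in 11 of 69 (15.9%), developmental transcription factor families in 17 of 241 (7.05%), microRNA genes in 30 of 538 (5.58%) and predicted genes named Gm in 212 of 9251 (2.29%). The last 2 shares are over GENCODE names, of which many have no RefSeq start.

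Of 256 genes on the list of transcripts changed on Klf6 silencing, 25 (9.77%) had a distal peak, next to a background of 9.31%, and 6 (2.34%) had it in both replicates of a stage, next to 2.29%. Tm4sf1, a tetraspanin-like membrane gene, had 27.63 in OLP A, 19.15 in OLP B, 34.73 in iOL A and 16.34 in iOL B at 45494 bp. Col11a1, a collagen, had a peak in all 4 samples at 2 loci, up to 24.31. Fbn2 (fibrillin 2) had 12.15 in OLP A, 7.97 in OLP B and 18.19 in iOL A, and Cd93 14.58, 12.11 and 17.37 in the same samples. Rnf19b and Adamts1 had a distal peak in both OLP samples alone, at 17.02 and 11.52 and at 14.58 and 10.14. All distal peaks of these 6 genes were high-copy. The other 19 were each called in 1 sample and included Ptchd2, Vit, Rcan2, Rbm24, Daglb, Bdh1, Mbnl1, Lama4, Csnk1g3, Cntn4, Slc30a4, Fam84a, St6gal2, Tgfa, Vegfc, Mthfd2l and Pros1, with highest folds from 5.63 (Pros1) to 14.89 (Ptchd2 and Vit). The Vit summit lay only 66 bp from a GENCODE protein-coding start, so it is distal by the listed start alone. By the start of any GENCODE transcript, other peaks named here also lay within the window. Among them were Mal in OLP A (5051 bp upstream), Kpnb1 in iOL A (3022 bp) and Cd93 in OLP A (7994 bp). In the cohort of 20 directly regulated genes, 6 had a distal peak (among them Fbn2, Csnk1g3, Cntn4, Tgfa and Mthfd2l), and all 6 also had a window peak. That cohort was chosen by the study for its window peaks on these samples and is no independent evidence.

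Few genes held many distal loci: 1868 of the 2434 had 1 and 384 had 2. Gm10033 had 10 loci, 3110007F17Rik 8, Gm2825 and Vmn2r121 7 each and AA792892 6. The last place was a tie of 3 genes with 6 loci each, of which 1 is given. Their peaks were low-copy in all cases for 3110007F17Rik, Gm2825 and AA792892, with fold enrichments from 5.35 to 12.7, and 46.7% of those of Vmn2r121 were high-copy. Chromosome 7 carried 10.6% of the distal peaks and 5.94% of all peaks, and the X chromosome 9.42% and 11.5%.

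At the edges of the range, peaks just inside 15 kb were listed for Rps21 (15013 bp, 11.26 in OLP B) and Setd7 (15014 bp, 9.92 in iOL A). The nearest outside were Rps21 (15000 bp, 10.57 in iOL B), Slc7a12 (14987 bp, 24.31 in OLP A) and Rps21 (14986 bp, 26.74 in OLP A). Peaks of 1 region near Rps21, a ribosomal protein gene, therefore fell on both sides. The next kilobase held 164 peaks on the inside and 195 on the outside. At the far edge the last peaks were listed for 4930404A05Rik (49998 bp, 12.41 in iOL A), Acbd3 (49995 bp, 7.88 in OLP B) and Cyp2c53-ps (49983 bp, 12.41 in iOL A), and no gene was listed beyond 50 kb.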

How the data were processed

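The authors filtered reads by quality with the FASTX tools, aligned them to mm9 with Bowtie2 (their notes also name CASAVA 1.8), ran MACS on each ChIP sample separately, with input as control, and assigned peaks to RefSeq starts. The version of MACS and the treatment of reads matching several places are not given in the sources used here. The deposited lists hold, for each peak, a raw count of tags, the MACS score as -10 times log10 of the p-value, the fold enrichment as a linear ratio, and the FDR in percent. Counts were deposited without scaling, so samples were compared by where peaks lay. Folds were tested only within a sample. Across samples they are set side by side, are not on a common scale and carry no test.

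Distal peaks had a listed gene and a distance from -50 kb to below -15 kb. The members, lists and named genes were chosen with earlier results of these data known. Named loci were the 10 found in all 4 samples with the largest lowest fold, the 5 per stage found in both its replicates alone with the largest mean fold, genes of the fixed lists with a distal peak in both replicates of a stage (for the gp130-Stat3, importin and Klf and Sp lists, and the lists of silenced and directly regulated genes, in any sample), the 5 genes with the most loci and the peaks at the edges. Stages were compared by exact permutation over samples (p at least 0.33) and classes by exact sign flips over 4 samples (p at least 0.13), two-sided. The p-values measure only the spread between these samples. For partner shares, the A and B values of a stage are not independent. Stretches of 20 and 32 bases were counted over mm9 (NCBIM37), and GENCODE vM1 gave transcripts. Of the listed symbols 90.3% matched GENCODE names. Alternatives covered tags, score, FDR, gap, distance range, repeated sequence, the replicate letter and each sample left out. A few named genes and sequences are not reported here. The scripts were tested on simulated data. Python 3.11.15, numpy 2.4.6, pandas 2.3.3, numba 0.67.0 and pysam were used.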

Additional observations from a re-analysis of the deposited data

How the results depend on the processing

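With 4 samples no test used here can pass 0.05, and a typical peak holds few tags. Without peaks whose 32-base stretches are over 50% repeated, which left 187, 257, 144 and 110 distal peaks in OLP A, OLP B, iOL A and iOL B, the mean partner share was 3.96% in place of 33.7%. The difference from window peaks then turned to -0.72 points and that from peaks without a listed gene to 0.998, partners of OLP A in iOL A fell to 15 and loci in all 4 samples to 1. In the low-copy class, added after seeing the data, the mean partner share was 6.12%, the difference from the window -1.61 points, the fold difference -0.31 and loci in all 4 samples 9. In the high-copy class the fold difference was -0.39 (0.58 over all peaks). With at least 10 tags, 215 OLP A peaks had a partner in iOL A (524 without) and 106 loci were in all 4 samples (184 without). From -30 to -15 kb and from -50 to -30 kb, 260 and 264 had a partner.

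Leaving out each sample, the OLP minus iOL difference ran from -73.5 to 614.5 peaks and from -40 to 413 genes. Partners of an OLP sample in iOL ran from 292 to 524, loci in all remaining samples from 207 to 281, the mean partner share from 29.4% to 38.1%, the difference from the window from 4.80 to 6.46 points, that from peaks without a listed gene from -7.49 to -7.13, the fold difference from 0.37 to 0.70, the GC difference from -1.18 to -0.93 points and the high-copy excess from 52.2 to 57.1 points. With the replicate letter as a block the differences stayed at 270.5 peaks and 186.5 genes (exact sign flips over 2 letters, p = 0.5, the smallest allowed), and the mean over same-letter pairs was 408 partners. The letters mark no shared animal or day in the labels. The GC difference and the high-copy excess kept their direction in all 11 and all 8 alternatives run.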
